A study of Arabidopsis thaliana with 10 samples.

Results

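The tonoplast intrinsic proteins (TIPs) are the aquaporins of the vacuole membrane, and in Arabidopsis thaliana they form a family of 10 genes. All 10 were taken by their locus identifiers from the 27086 loci of the deposited tables, and no member was kept or left out by its values. Aquaporins are membrane channels that let water pass along an osmotic gradient, and several TIPs also conduct urea or ammonia. The family is divided among kinds of vacuole: TIP1;1 (gamma-TIP), TIP1;2 (gamma-TIP2) and TIP2;1 (delta-TIP) are known from the large central vacuole of vegetative cells, TIP3;1 (alpha-TIP) and TIP3;2 (beta-TIP) from the protein storage vacuoles of maturing seeds, TIP2;2, TIP2;3 and TIP4;1 mainly from roots, and TIP1;3 and TIP5;1 from pollen. These older names, which the RefSeq annotation also lists, are used below for those 5 genes. As a seedling establishes, the storage vacuoles of the embryo give way to the central vacuole.

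Transcripts were measured by RNA-seq in whole seedlings of ecotype Col-0, 10 days after germination (DAG), with 2 libraries for each of 5 genotypes. The single mutants atbmi1a and atbmi1b, a strong double mutant (atbmi1ab_strong) and a triple mutant (atbmi1abc) were set against wild type (WT). The labels name no alleles and no treatment, and "strong" is their own word. AtBMI1A, AtBMI1B and AtBMI1C are RING-finger subunits of Polycomb repressive complex 1, which ubiquitinates a core histone and keeps developmental genes silent. Whether both libraries of a genotype stem from separate plants is not labelled, and the p-values therefore reflect a spread between libraries that may be technical.

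The values are FPKM, fragment counts scaled to gene length and to library size, and their sums per library ranged from 792416 to 990295. Read counts are not used here, and low values gave relative depths of 0.818 to 1.35 times that of WT replicate 1. AtBMI1A stood at 6.91 and 6.08 FPKM in WT but at 26.8 and 33.4 FPKM in the libraries labelled atbmi1a, at 7.89 and 9.19 FPKM in those labelled atbmi1ab_strong, and at 10.3 and 13.7 FPKM in those labelled atbmi1abc. These levels go against a loss of the transcript, so every genotype below is that of the label. AtBMI1B was at 0.182 and 0.108 FPKM in the libraries labelled atbmi1b against 6.34 and 5.86 FPKM in WT, at 1.70 and 1.91 FPKM in those labelled atbmi1ab_strong, and at 3.89 and 3.64 FPKM in those labelled atbmi1abc. AtBMI1C reached 3.42 and 3.22 FPKM in the libraries labelled atbmi1ab_strong and 3.04 and 4.35 FPKM in those labelled atbmi1abc. It was at most 0.209 FPKM in the other 6 libraries. The summed level of 10 leaf photosynthesis genes was 50501 to 59453 FPKM in WT, 33653 to 41648 FPKM in the single mutants, and 1474 to 1958 FPKM in the 4 double- and triple-mutant libraries.

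The 250 bases before the annotated start of each TIP gene were searched on both strands for the RY element CATGCA, which is bound by the seed B3-domain factors ABI3, FUS3 and LEC2, and for the ABRE core ACGTG, which is bound by bZIP factors of the abscisic acid response. An RY match was present in 3 of the 10 windows, those of alpha-TIP, beta-TIP and gamma-TIP2, against 8.43% of the same windows of all 27444 protein-coding genes. Alpha-TIP held 2 overlapping RY matches that together spell CATGCATG, as did 0.776% of all windows, and it was the one TIP gene that also held an ABRE core beside RY, a pair found in 2.22% of all windows. An ABRE core without RY was present before gamma-TIP and TIP5;1. Of all windows, 22.9% held an ABRE core, with or without RY. The 200 bases nearest the start are shown 5′ to 3′ for the 3 genes with an RY match, from the RefSeq TAIR10.1 genome, with matches in capitals.
TIP3;1 (chr1:27521744-27521943, plus strand): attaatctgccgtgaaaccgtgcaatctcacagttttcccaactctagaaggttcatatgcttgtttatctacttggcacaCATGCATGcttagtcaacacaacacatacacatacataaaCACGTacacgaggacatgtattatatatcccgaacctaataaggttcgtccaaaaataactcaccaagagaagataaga
TIP3;2 (chr1:6129825-6130024, plus strand): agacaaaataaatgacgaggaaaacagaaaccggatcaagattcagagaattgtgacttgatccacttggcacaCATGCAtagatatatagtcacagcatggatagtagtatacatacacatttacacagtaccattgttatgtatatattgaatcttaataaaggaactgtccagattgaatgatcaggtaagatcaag
TIP1;2 (chr3:9723905-9724104, minus strand): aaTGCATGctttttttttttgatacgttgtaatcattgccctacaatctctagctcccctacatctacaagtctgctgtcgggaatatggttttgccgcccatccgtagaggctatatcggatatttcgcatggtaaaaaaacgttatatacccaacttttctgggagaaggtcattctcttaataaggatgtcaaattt
The RY matches began 119 and 117 bases before the start of alpha-TIP, 126 bases before that of beta-TIP and 198 bases before that of gamma-TIP2. In both seed genes the match lay at the end of one shared run of 17 bases, acttggcacaCATGCAT, which occurred in 2 of the 27444 windows, these same genes. No other pair of TIP windows shared a run longer than 11 bases. A match describes these letters only, and no factor binding was measured.

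TIP3;1 (AT1G73190, chr1:27521944-27523332, 3 exons), the alpha-TIP of the storage vacuole, went from near silence to the most abundant TIP transcript. Its level was 1.31 and 0.806 FPKM in WT, 1.16 and 0.597 FPKM in atbmi1b, 1278.5 and 1487 FPKM in atbmi1ab_strong, and 1543 and 1771 FPKM in atbmi1abc. The libraries labelled atbmi1a did not match each other, with 50.2 FPKM in replicate 1 and 0.808 FPKM in replicate 2. Every double- and triple-mutant library was thus far above every WT and single-mutant library. On the log2(FPKM + 1) scale used for all tests, alpha-TIP rose by 9.40 ± 1.24 (SE) in atbmi1ab_strong against WT (limma, adjusted p = 0.0003) and by 9.66 ± 1.24 in atbmi1abc against WT (adjusted p = 0.000178). In both comparisons it ranked 20 from the highest of 19460 tested loci. The mean FPKM was 1308-fold that of WT in atbmi1ab_strong and 1567-fold in atbmi1abc.

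TIP3;2 (AT1G17810, chr1:6130025-6131627, 3 exons), the beta-TIP of the storage vacuole, followed the same course at a lower level. It stood at 0.877 and 1.40 FPKM in WT, 0.123 and 0.164 FPKM in atbmi1b, 429.9 and 586 FPKM in atbmi1ab_strong, and 276 and 399.6 FPKM in atbmi1abc. Among the atbmi1a libraries, replicate 1 was again high, at 11.6 FPKM, and replicate 2 low, at 0.163 FPKM. The 4 double- and triple-mutant libraries lay above all others. Beta-TIP rose by 7.89 ± 0.90 in atbmi1ab_strong (adjusted p = 0.000133) and by 7.29 ± 0.90 in atbmi1abc (adjusted p = 0.000143) against the same WT libraries. Its mean FPKM was 446-fold that of WT in atbmi1ab_strong and 297-fold in atbmi1abc.

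Neither seed TIP passed the test between atbmi1abc and atbmi1ab_strong. The difference was 0.26 for alpha-TIP, with a 95% interval of -2.62 to 3.14, and -0.59 for beta-TIP, with an interval of -2.69 to 1.498. All 10 libraries share 1 estimate of the spread, and for these genes the 2 atbmi1a libraries widen it, the SE of beta-TIP being 0.90 with all libraries and 0.22 without either of them. Without either atbmi1a library, the difference of -0.59 for beta-TIP passed the threshold (adjusted p = 0.0482 without replicate 1 and 0.0462 without replicate 2). The ratio of alpha-TIP to beta-TIP was 2.97 and 2.54 in the atbmi1ab_strong libraries and 5.59 and 4.43 in the atbmi1abc libraries, so the ranges did not overlap. This ratio was given no test.

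In the single mutants no change of the seed TIPs was called against WT. For atbmi1a the difference was 2.24 ± 1.24 for alpha-TIP (adjusted p = 0.195) and 0.85 ± 0.90 for beta-TIP (adjusted p = 0.492), and both rest on replicate 1. Leaving that library out gave -0.18 for alpha-TIP (adjusted p = 0.586) and -0.87 for beta-TIP (adjusted p = 0.0443), whereas leaving out replicate 2 gave 4.65 (adjusted p = 4.48e-05) and 2.57 (adjusted p = 0.000774). Other seed genes, mainly of storage and oil bodies, moved in the same library. A list of 14 seed storage, oil-body and late-embryogenesis genes summed to 3147 FPKM in atbmi1a replicate 1, against 50.2 FPKM in replicate 2 and 64.8 to 73.8 FPKM in WT. Its late-embryogenesis genes EM1 and EM6 were at only 0.560 and 0.311 FPKM in replicate 1. EM6 thus lay below both WT libraries, at 0.668 and 0.504 FPKM. The seed regulators FUS3 and ABI3 were at 3.48 and 2.31 FPKM in replicate 1 and at 0.0450 and 0.0194 FPKM in replicate 2. The part of these genes in the TIP3 levels was not tested. For atbmi1b the difference was -0.14 for alpha-TIP (adjusted p = 0.945) and -0.89 for beta-TIP (adjusted p = 0.458). The latter was called lower without either atbmi1a library (adjusted p = 0.0124 and 0.0116).

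Most seed regulators and markers were also high in the higher-order mutants. The B3-domain regulators FUS3 and ABI3 were at no more than 0.182 FPKM in WT, at 54.9 and 56.3 FPKM (FUS3) and 46.99 and 54.8 FPKM (ABI3) in atbmi1ab_strong, and at 179 and 169.9 FPKM and 101 and 111 FPKM in atbmi1abc. L1L, bZIP67, ABI5 and LEC1 were likewise higher than WT in all 4 libraries, with LEC1 at 1.22 and 0.878 FPKM in atbmi1ab_strong against 14.7 and 15.7 FPKM in atbmi1abc. LEC2 stayed at or below 0.0651 FPKM in atbmi1ab_strong and reached 0.125 and 0.546 FPKM in atbmi1abc. All 7 had WT means under the 1 FPKM that a locus had to reach over the 10 libraries to be tested, so no count of calls is given for them. The 14 seed markers summed to 85245 and 101168 FPKM in atbmi1ab_strong and to 110324 and 132137 FPKM in atbmi1abc. The storage globulin genes CRA1 and CRU3 were listed at 0 in atbmi1ab_strong, below WT at 13.6 and 12.4 FPKM (CRA1) and 14.2 and 11.2 FPKM (CRU3). Their relative CRU2 was at 8906 and 10854 FPKM in the same atbmi1ab_strong libraries. Whether these values of 0 are true levels was not tested, so the sums of that genotype may be incomplete. In atbmi1abc CRA1 was at 22377 and 28378 FPKM and CRU3 at 17461 and 25294 FPKM. The order of the sums rests on these genes. In RNA from whole seedlings, more cells of a type cannot be told apart from more transcript per cell.

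**Figure D1:**
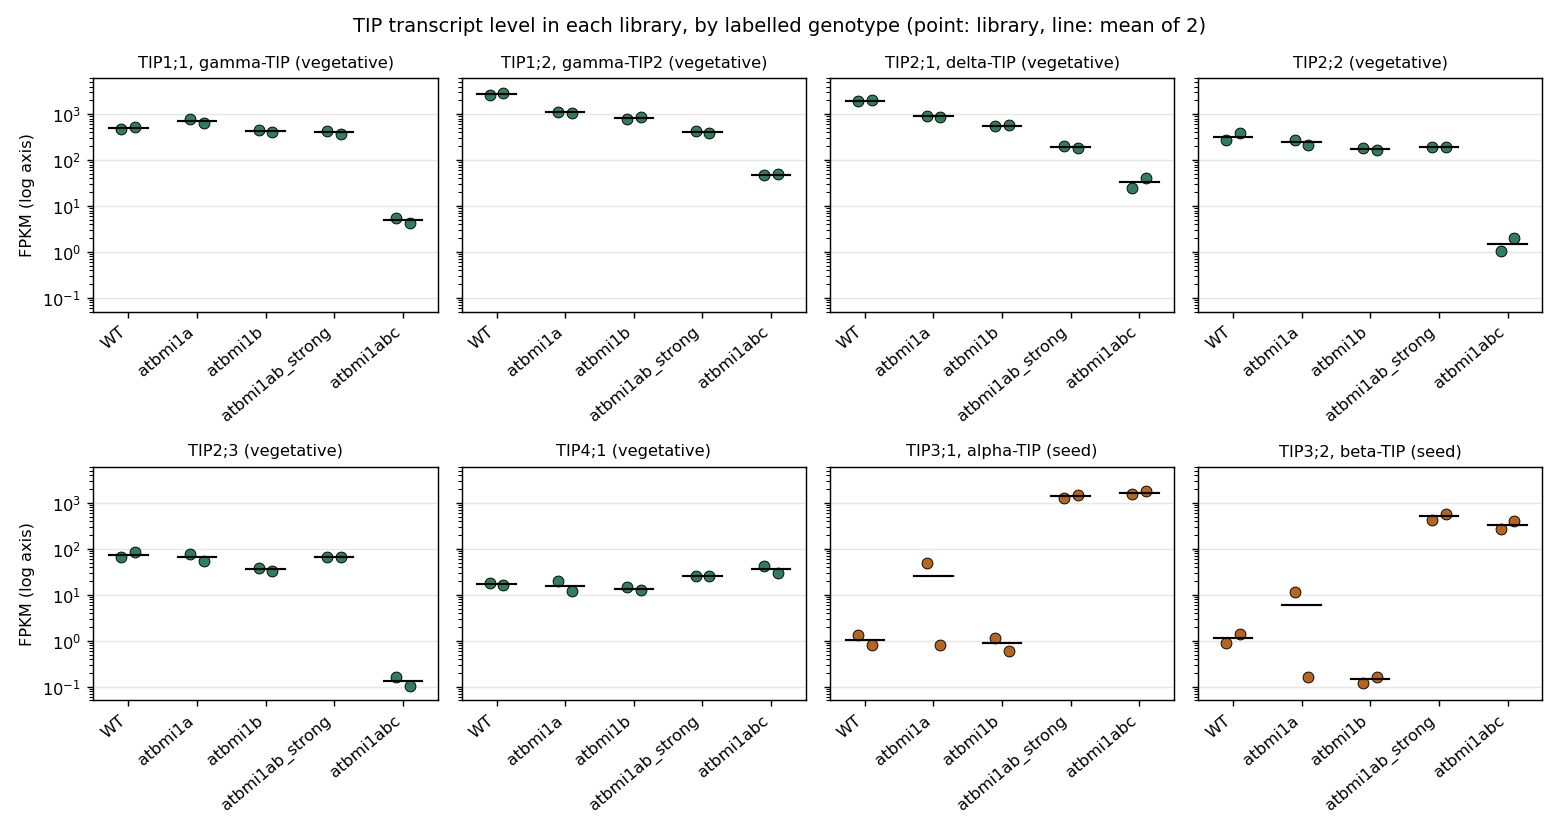
Transcript level of the 8 tested TIP genes in FPKM (log axis) for each labelled genotype. Each point is 1 library and each line the mean of 2. TIP3;1 and TIP3;2 are high in the 4 atbmi1ab_strong and atbmi1abc libraries, TIP1;2 and TIP2;1 step down from WT to atbmi1abc, and in atbmi1abc TIP1;1, TIP2;2 and TIP2;3 lie far below the other genotypes.

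Among the vegetative members, gamma-TIP2 and delta-TIP were the most abundant TIP transcripts of WT and were lower in every mutant. TIP1;2 (AT3G26520, chr3:9722443-9723904, 2 exons), the gamma-TIP2 of the central vacuole and a water channel, was at 2571 and 2938 FPKM in WT and at 1105 and 1072 FPKM in atbmi1a. It was at 804 and 855 FPKM in atbmi1b, at 427 and 394 FPKM in atbmi1ab_strong, and at 46.6 and 48.9 FPKM in atbmi1abc. The libraries of the 5 genotypes did not overlap and formed a descending series in that order. Gamma-TIP2 fell by 1.34 ± 0.09 on the log2 scale in the libraries labelled atbmi1a (adjusted p = 0.000172) and by 1.73 ± 0.09 in atbmi1b (adjusted p = 2e-05), both against WT. The fall was 2.74 ± 0.09 in atbmi1ab_strong (adjusted p = 2.13e-07) and 5.82 ± 0.09 in atbmi1abc (adjusted p = 1.96e-08), where WT was 57.7-fold higher in mean FPKM.

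TIP2;1 (AT3G16240, chr3:5505360-5507050, 3 exons), or delta-TIP, able to conduct ammonia as well as water, had the same order. It stood at 1889 and 2005 FPKM in WT, 905 and 881 FPKM in atbmi1a, and 543 and 579 FPKM in atbmi1b. In atbmi1ab_strong it was at 200.1 and 185 FPKM, and in atbmi1abc at 24.8 and 41.3 FPKM. No 2 genotypes overlapped. Delta-TIP fell by 1.12 ± 0.20 in atbmi1a (adjusted p = 0.00455), by 1.79 ± 0.20 in atbmi1b (adjusted p = 0.00031), by 3.33 ± 0.20 in atbmi1ab_strong (adjusted p = 3.65e-06) and by 5.88 ± 0.20 in atbmi1abc (adjusted p = 1.47e-07). These differences share the WT libraries and are not independent of each other. Relative to atbmi1ab_strong, atbmi1abc was lower by a further step, -3.08 ± 0.09 for gamma-TIP2 (adjusted p = 4.91e-07) and -2.55 ± 0.20 for delta-TIP (adjusted p = 3.48e-05).

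TIP1;1 (AT2G36830, chr2:15445294-15446621, 2 exons), or gamma-TIP, a marker of the vegetative vacuole membrane, behaved otherwise than its closest relative gamma-TIP2. Its level was 465 and 520.6 FPKM in WT, 767 and 628 FPKM in atbmi1a, 458 and 401 FPKM in atbmi1b, 427 and 378 FPKM in atbmi1ab_strong, and 5.63 and 4.24 FPKM in atbmi1abc. The atbmi1a libraries lay above WT, those of atbmi1b and atbmi1ab_strong lay just below it, and both atbmi1abc libraries lay far below all others. In atbmi1abc, gamma-TIP fell by 6.39 ± 0.15 against WT (adjusted p = 4.29e-08) and by 6.10 ± 0.15 against atbmi1ab_strong (adjusted p = 2.58e-07), a mean 99.9-fold below WT and 81.6-fold below atbmi1ab_strong. The differences from WT were -0.29 ± 0.15 in atbmi1ab_strong (adjusted p = 0.123) and -0.20 ± 0.15 in atbmi1b (adjusted p = 0.317). In the libraries labelled atbmi1a it was called higher by 0.49 ± 0.15 (adjusted p = 0.0367). That call was lost when only the WT and atbmi1a libraries were fitted (adjusted p = 0.0728), and without WT replicate 1 (0.166), WT replicate 2 (0.0813), atbmi1a replicate 1 (0.142) or either atbmi1b library (0.0533 for each).

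The ratio of gamma-TIP to gamma-TIP2 shows the divergence of these relatives within each library, free of library scaling. It was 0.181 and 0.177 in WT, 0.694 and 0.585 in atbmi1a, 0.569 and 0.469 in atbmi1b, 0.999 and 0.959 in atbmi1ab_strong, and 0.121 and 0.0866 in atbmi1abc. Gamma-TIP2 therefore exceeded gamma-TIP several-fold in WT, the levels were nearly equal in atbmi1ab_strong, and gamma-TIP2 was again well above gamma-TIP in atbmi1abc, at much lower levels of both. Their coding sequences are 81.8% identical with a longest identical run of 29 bases. Whether any reads fit both genes and were assigned by the authors' software to either was not tested.

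TIP2;2 (AT4G17340, chr4:9698940-9700472, 2 exons) and TIP2;3 (AT5G47450, chr5:19248249-19249622, 2 exons) are close relatives, 83.2% identical in coding sequence, and are known mainly from roots. TIP2;2 was at 271 and 382 FPKM in WT, 274 and 216 FPKM in atbmi1a, 188 and 169 FPKM in atbmi1b, 195 and 193 FPKM in atbmi1ab_strong, and 1.06 and 1.999 FPKM in atbmi1abc. The WT and atbmi1a ranges overlapped, those of atbmi1b and atbmi1ab_strong lay below WT, and atbmi1abc stood far below all others. The gene fell by 7.02 ± 0.22 in atbmi1abc against WT (adjusted p = 1.11e-07), rank 31 from the lowest of 19460 loci. Against atbmi1ab_strong it fell by 6.29 ± 0.22 (adjusted p = 7.56e-07), rank 19. The WT mean was 213-fold higher than that of atbmi1abc.

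The smaller differences of this gene were less stable. It fell by 0.85 ± 0.22 in atbmi1b (adjusted p = 0.0147) and by 0.73 ± 0.22 in atbmi1ab_strong (adjusted p = 0.019), and the atbmi1a difference was -0.40 ± 0.22 (adjusted p = 0.187). Leaving out WT replicate 2 (adjusted p = 0.0977) or atbmi1b replicate 2 (0.082) ended the atbmi1b call. The atbmi1ab_strong call ended without WT replicate 2 (adjusted p = 0.129), without either atbmi1ab_strong library, with a pseudocount of 0.1 (0.05003), and with the single mutants in place of WT, where the difference was -0.10 (0.648).

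TIP2;3, a channel known to conduct ammonia, was at 66.0 and 84.4 FPKM in WT, 75.8 and 55.3 FPKM in atbmi1a, 38.2 and 32.99 FPKM in atbmi1b, and 65.7 and 65.0 FPKM in atbmi1ab_strong. In atbmi1abc it was at 0.162 and 0.102 FPKM. The atbmi1b libraries lay below WT, the atbmi1ab_strong libraries lay just under the lower WT library, and atbmi1abc was near 0. The gene fell by 1.05 ± 0.17 in atbmi1b (adjusted p = 0.00187), and the differences were -0.20 ± 0.17 in atbmi1a (adjusted p = 0.383) and -0.19 ± 0.17 in atbmi1ab_strong (adjusted p = 0.358). In atbmi1abc it fell by 6.06 ± 0.17 against WT (adjusted p = 7.55e-08) and by 5.87 ± 0.17 against atbmi1ab_strong (adjusted p = 4.62e-07). The added 1 FPKM limits the size of these last values, which with a pseudocount of 0.1 were -8.34 and -8.15.

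TIP4;1 (AT2G25810, chr2:11012499-11014171, 3 exons), known from roots and able to conduct urea as well as water, was the one vegetative member that rose in atbmi1abc. It was at 18.5 and 16.3 FPKM in WT, 19.8 and 11.95 FPKM in atbmi1a, 14.7 and 12.4 FPKM in atbmi1b, 25.4 and 25.9 FPKM in atbmi1ab_strong, and 41.5 and 29.8 FPKM in atbmi1abc. The double- and triple-mutant libraries all lay above the other 6. It rose by 0.98 ± 0.23 in atbmi1abc against WT (adjusted p = 0.0055), a mean 2.05-fold higher. The difference of 0.54 ± 0.23 in atbmi1ab_strong was not called (adjusted p = 0.0763), but was called when only these libraries and WT were fitted (0.00432), without either atbmi1a library (0.0203 and 0.0197) and with organelle loci removed, at 0.71 (0.0327). Between atbmi1abc and atbmi1ab_strong the difference was 0.44 ± 0.23, with a 95% interval of -0.10 to 0.98 (adjusted p = 0.139).

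Root marker genes stand beside these root TIPs. The 20 root markers summed to 219 and 224 FPKM in WT, 153 to 187 FPKM in the single mutants, 269 to 288 FPKM in atbmi1ab_strong and 207 to 225 FPKM in atbmi1abc. Of the 18 tested, 6 were higher and 11 lower in atbmi1abc against WT (36.3% and 37.7% of all loci), with a median log2 difference of -2.10. Among the higher ones, BRN2 reached the mean required for testing only through atbmi1abc. It was at 4.03 and 3.74 FPKM there and at 0.579 and 0.250 FPKM in WT. The lower ones included the Casparian strip gene CASP1 (-5.25), and CASP4 and CASP5 were listed at 0 in both atbmi1abc libraries, whereas the auxin transporter PIN2 (3.25) and the endodermis regulator SCR (2.04) were higher. In atbmi1ab_strong, 7 were higher and 1 lower (31.8% and 32.6% of all loci). Their part in the levels of the 3 root TIPs was not tested.

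The pollen members were barely detected. TIP1;3 (AT4G01470, chr4:624786-625885, 1 exon) was listed at 0 in 9 libraries and at 0.122 FPKM in atbmi1abc replicate 1. TIP5;1 (AT3G47440, chr3:17481996-17483158, 3 exons) was listed at 0 in 8 libraries and at 0.0849 and 0.0768 FPKM in replicate 1 of atbmi1a and of atbmi1b. Both fell under the mean of 1 FPKM required for testing, which left 8 of the 10 members. Of 11 pollen markers, 6 to 8 were also at 0 in each library. The markers ANX1, HAP2 and BUPS1 were above 0 in every library, and ANX1 ranged from 1.55 to 6.11 FPKM.

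**Figure D2:**
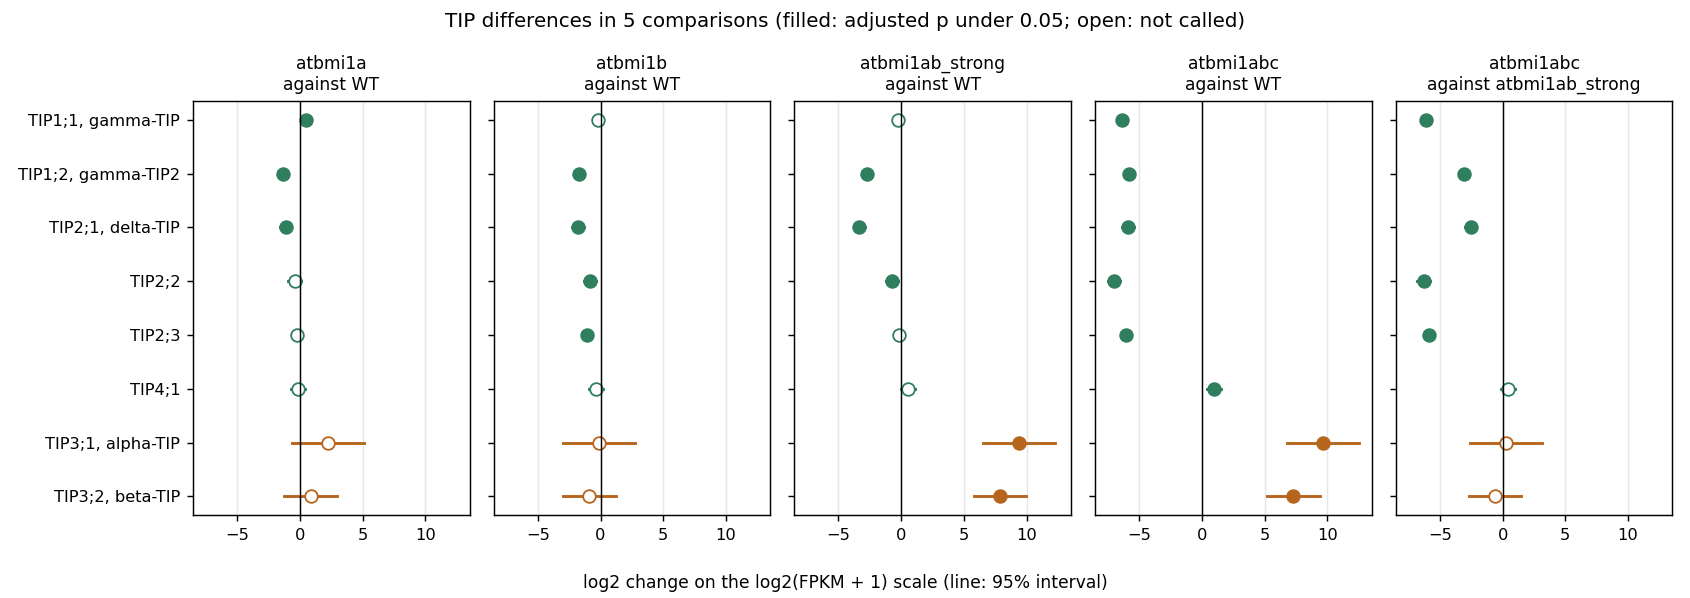
Log2 difference of the 8 tested TIP genes on the log2(FPKM + 1) scale in the 5 comparisons, with the limma 95% interval. Filled points have an adjusted p under 0.05. TIP3;1 and TIP3;2 lie at 7.29 or above against WT in atbmi1ab_strong and atbmi1abc, and 5 of the 6 vegetative members lie at -5.82 or below in atbmi1abc against WT.

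Counted over the 8 tested members, 1 was called higher and 2 lower in atbmi1a against WT, where 17% of all tested loci were called higher and 18.4% lower. In atbmi1b none was called higher by limma, none had an unadjusted p under 0.05 in that direction, and 4 were called lower, where 21.3% of all loci were called higher and 24.1% lower. In atbmi1ab_strong 2 members were higher and 3 lower (31.8% and 32.6% of all loci), and in atbmi1abc 3 were higher and 5 lower (36.3% and 37.7%). Between atbmi1abc and atbmi1ab_strong, 0 were higher, also at an unadjusted p under 0.05, and 5 were lower, where 32.1% of all loci were higher and 25.2% lower. Most loci were called in these later comparisons, so the counts alone set the family little apart. The median log2 difference of the 6 vegetative members was -0.30 in atbmi1a, -0.95 in atbmi1b, -0.51 in atbmi1ab_strong and -5.97 in atbmi1abc against WT, where the median over all loci was within 0.02 of 0 in each.

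Both the size and the make-up of the TIP transcript pool differed between genotypes. Summed over the 10 genes, TIP transcripts came to 5616 ± 471 FPKM (SD, n = 2) in WT, 3037 ± 243 FPKM in atbmi1a, 2049 ± 2.56 FPKM in atbmi1b, 3181 ± 189 FPKM in atbmi1ab_strong and 2118 ± 253 FPKM in atbmi1abc. The vegetative members alone came to 5613 FPKM in WT, 1290 FPKM in atbmi1ab_strong and 123 FPKM in atbmi1abc, so that WT was 4.35-fold and 45.6-fold higher. The seed members made up 0.0414% and 0.0371% of the pool in WT, 56.1% and 62.5% in atbmi1ab_strong, and 93.8% and 94.5% in atbmi1abc. In the single mutants the share was 1.93% in atbmi1a replicate 1 and at most 0.0626% in the other 3 libraries. The seed TIPs together summed to similar levels in the higher-order mutants, 1891 ± 258 FPKM in atbmi1ab_strong and 1995 ± 249 FPKM in atbmi1abc, a difference smaller than the spread between replicates.

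**Figure D3:**
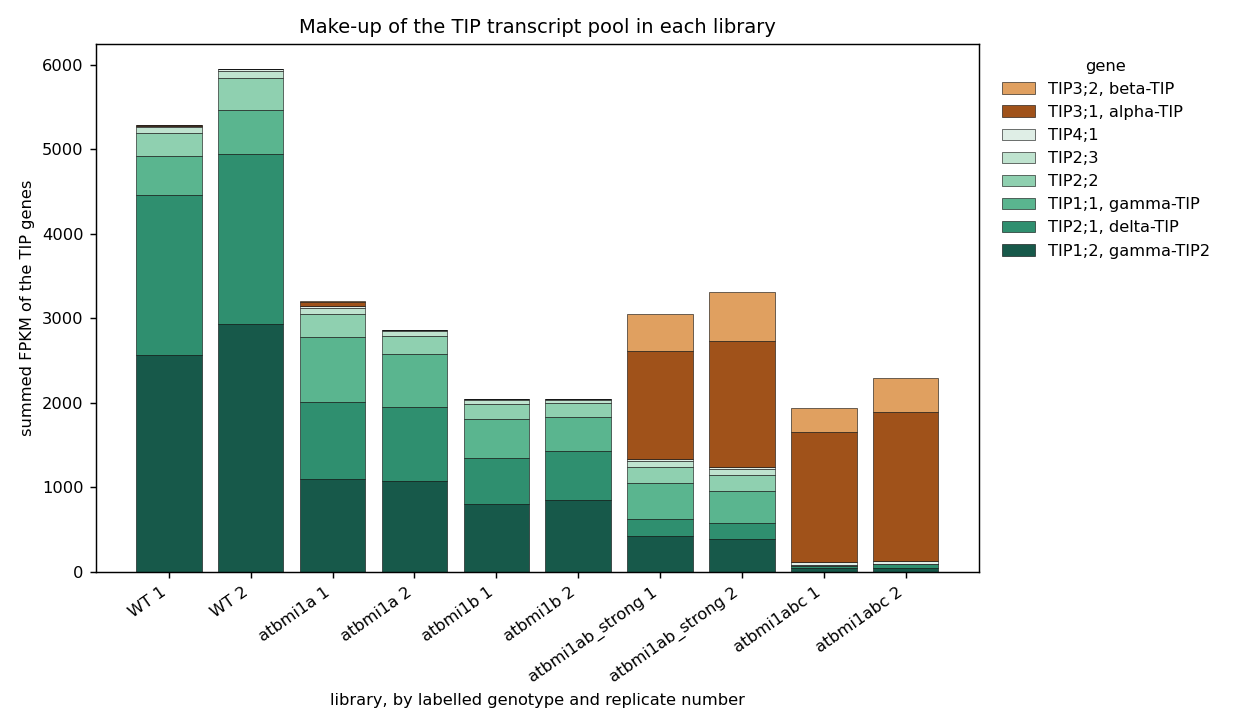
Summed FPKM of the TIP genes in each library, stacked by gene, with vegetative members in green and seed members in brown. The pollen members are too low to show. The WT bars reach 5283 and 5949 FPKM and are almost wholly green, whereas seed members make up 56.1% to 62.5% of the atbmi1ab_strong bars and 93.8% to 94.5% of the atbmi1abc bars.

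The order of the members changed accordingly. In WT it ran from gamma-TIP2 through delta-TIP, gamma-TIP, TIP2;2, TIP2;3 and TIP4;1 to the seed members, and only beta-TIP and alpha-TIP, and the undetected pollen genes, overlapped their neighbour. The atbmi1b order was the same for all 6 vegetative members, and that of atbmi1a for the first 5. In atbmi1ab_strong alpha-TIP and beta-TIP came first, followed by gamma-TIP2 and gamma-TIP, which overlapped, then TIP2;2 and delta-TIP, which also overlapped, then TIP2;3 and TIP4;1. In atbmi1abc the seed members were followed by gamma-TIP2, then by TIP4;1 and delta-TIP, which overlapped, and by gamma-TIP, TIP2;2 and TIP2;3.

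Across the 10 libraries the members fell into sets with like profiles, seen in the values and described here by Pearson's r of log2(FPKM + 1). The r was 0.989 between gamma-TIP2 and delta-TIP, 0.99 between gamma-TIP and TIP2;2, 0.993 between TIP2;2 and TIP2;3, 0.992 between alpha-TIP and beta-TIP, and 0.902 between TIP4;1 and alpha-TIP. The vegetative sets were not sharply apart. Gamma-TIP2 had an r of 0.93 with TIP2;2, 0.907 with gamma-TIP and 0.904 with TIP2;3, and delta-TIP had 0.891, 0.867 and 0.854 with the same genes. These values rest on 5 genotypes of 2 libraries and are dominated by the differences between genotypes. Among 8549 other tested loci with a symbol, those most alike included OLEO2, PER1 and PAP85 for alpha-TIP (0.9997, 0.9994 and 0.9994) and GA20OX3, GASA3 and HSD5 for beta-TIP (0.9964, 0.9961 and 0.996). For gamma-TIP2 they were COL5, GGH3 and the plasma membrane aquaporin PIP1;5 (0.9984, 0.9956 and 0.9952), and for delta-TIP they were PIP1;5, XTH4 and EIL1 (0.9961, 0.996 and 0.9942). Gamma-TIP was most like IPMI2, RCI2B and XBCP3 (0.9966, 0.9959 and 0.9958). TIP2;2 was most like the aquaporin PIP2;2, named PIP2B in the RefSeq table, FACT and AGP22 (0.9965, 0.9964 and 0.9964), and TIP2;3 was like AGP22 and RGLG3 (0.994 and 0.9935). The closest to TIP4;1 were SDP6, SDH3-2 and MVP1 (0.9881, 0.9671 and 0.9639).

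The other aquaporins of the genome gave a scale for these differences. They comprise the plasma membrane intrinsic proteins (PIPs), the NOD26-like proteins (NIPs) and the small basic proteins (SIPs), 25 genes of which 21 were tested. In atbmi1ab_strong against WT 7 were higher and 10 lower (31.8% and 32.6% of all loci), and in atbmi1abc 6 were higher and 13 lower (36.3% and 37.7%). The share higher was thus close to that of all loci in atbmi1ab_strong and below it in atbmi1abc. The share lower was above that of all loci in both, and these shares were given no test. Of the 13 PIPs, 9 were lower in atbmi1ab_strong with a median log2 difference of -1.12, and 11 in atbmi1abc with a median of -4.07. All 3 SIPs were higher in both. Between atbmi1abc and atbmi1ab_strong, 8 PIPs were lower and none higher (25.2% and 32.1% of all loci).

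PIP2;6 was lowest in both (-4.22 in atbmi1ab_strong and -6.99 in atbmi1abc), followed in atbmi1ab_strong by PIP1;5 (-2.64) and PIP2;7 (-1.65) and in atbmi1abc by PIP2;2 (-6.07) and PIP1;1 (-5.20). PIP2;6 went from 417 and 411 FPKM in WT through 19.4 and 23.2 FPKM in atbmi1ab_strong to 1.93 and 2.67 FPKM in atbmi1abc. PIP2;2, by contrast, was at 363 and 445 FPKM in WT, 212 and 215 FPKM in atbmi1ab_strong and 3.81 and 6.43 FPKM in atbmi1abc, a course close to that of TIP2;2. The highest were SIP1;2 (2.34 in atbmi1ab_strong and 3.16 in atbmi1abc) and PIP2;5 (2.19 and 1.99), each called in both. NIP2;1 was at 0.618 and 0.857 FPKM in WT, 2.89 and 3.31 FPKM in atbmi1ab_strong and 2.64 and 3.40 FPKM in atbmi1abc, and it reached the mean required for testing only through the latter genotypes. None of the 21 had a difference as large as those of alpha-TIP and beta-TIP.

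**Figure D4:**
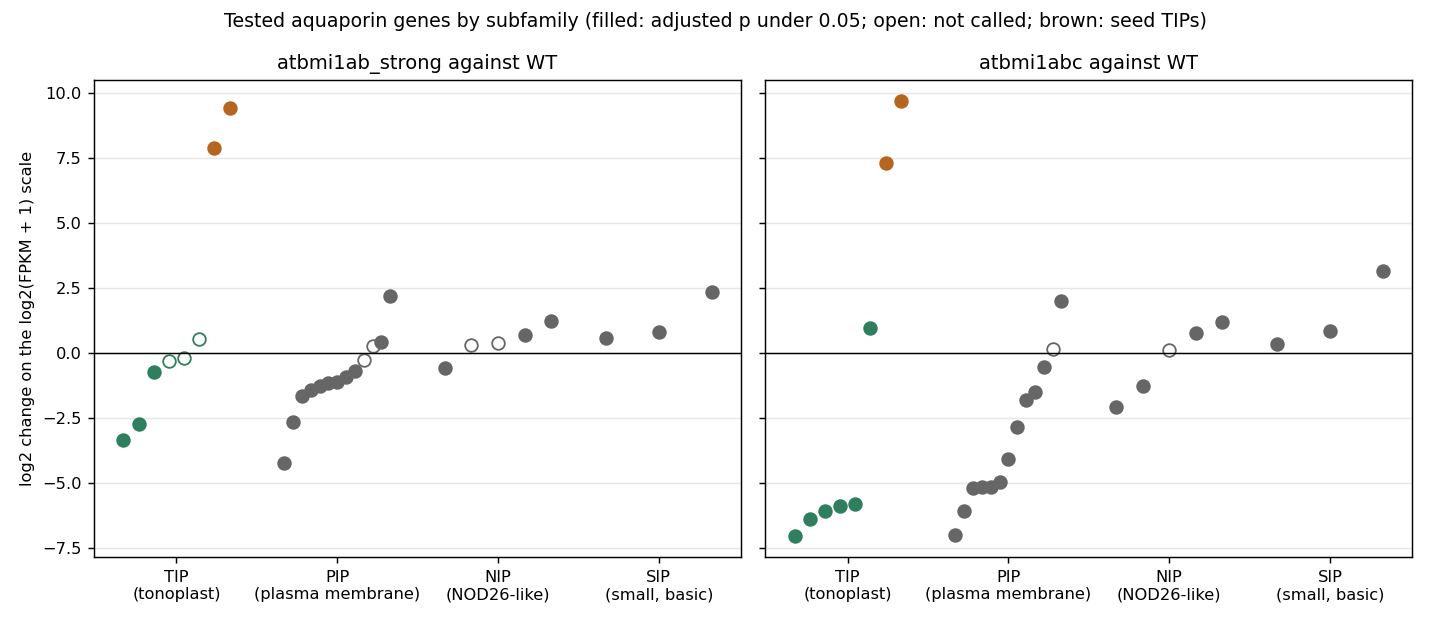
Log2 difference from WT on the log2(FPKM + 1) scale for the 29 tested aquaporin genes, by subfamily. Filled points have an adjusted p under 0.05 and brown points are the seed TIPs. Most PIPs and vegetative TIPs lie below 0 and reach further down in atbmi1abc, all 3 SIPs lie above 0, and the seed TIPs lie above every other aquaporin.

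Other proteins of the same membrane included genes called in either direction. Of 15 tonoplast pumps, channels and transporters, all tested, 4 were higher and 8 lower in atbmi1ab_strong (31.8% and 32.6% of all loci), and 5 were higher and 8 lower in atbmi1abc (36.3% and 37.7%). The malate transporter TDT (-4.49 in atbmi1ab_strong and -5.03 in atbmi1abc), the calcium/proton exchanger CAX1 (-3.72 and -3.03) and the nitrate/proton exchanger CLC-a (-1.33 and -2.87) fell most. The exchanger CAX3 (4.72 and 4.29), the sucrose transporter SUC4 (3.42 and 3.87) and the sugar transporter TST2 (0.82 and 1.63) rose most. CAX1 was at 138 and 107 FPKM in WT and 9.29 and 7.38 FPKM in atbmi1ab_strong, and its relative CAX3 at 3.90 and 3.84 FPKM in WT and 115 and 142 FPKM in atbmi1ab_strong. The proton pump subunits VHA-a2 (0.03 and 0.12) and VHA-a3 (0.05 and 0.11) were not called. Another proton pump of this membrane, AVP1, was lower than WT in every library of both mutants. It was at 275 and 300 FPKM in WT, 216 and 190 FPKM in atbmi1ab_strong, and 185 and 178 FPKM in atbmi1abc.

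Of the TIP genes, 4 overlap a protein-coding gene on the opposite strand, and the sources used here do not say whether strand was used in counting. AT1G73200 beside alpha-TIP ranged from 9.35 to 25.8 FPKM, AT1G17820 beside beta-TIP from 5.15 to 13.8 FPKM, AT3G16250 beside delta-TIP from 0.716 to 45.9 FPKM and AT3G47450 beside TIP5;1 from 3.73 to 22.3 FPKM. Alpha-TIP in WT and atbmi1b lay below its neighbour, and in atbmi1ab_strong and atbmi1abc far above it.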

How the data were processed

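Illumina libraries were made from total RNA of whole seedlings, per the labels' protocols. The authors ran FastQC, TopHat, Cufflinks and Cuffdiff on build TAIR10, per the submitters' processing notes. Tool versions, options, annotation and strand setting were not given in the sources used here. Each deposited table holds FPKM values of 27086 loci for 1 library. That unit was inferred from the tools and from the values, because the headers name only expression. FPKM keeps no read counts, so no counting intervals are given, and near-identical or overlapping genes may share reads.

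All 10 libraries entered 1 limma fit (version 3.58.1, R 4.3.3) on log2(FPKM + 1), with 1 coefficient per genotype, 5 residual degrees of freedom and a mean-variance trend. A locus was tested if its mean across the 10 libraries reached 1 FPKM, which left 19460 loci, and calls are at a Benjamini-Hochberg adjusted p under 0.05 over all of them. TIP3;1 and TIP3;2 pass this filter also on WT alone, at means of 1.06 and 1.14 FPKM. Fold values of means are on the FPKM scale. Comparisons with WT share its 2 libraries. Same-numbered replicates did not pair: over 10 pairs of genotypes, the correlation of deviations from the genotype means ran from -0.226 to 0.119.

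Symbols came from the RefSeq TAIR10.1 annotation, which matched 26177 loci. Gene positions, exons, coding sequences and upstream windows came from the same annotation and genome, since the deposited tables hold no coordinates. The members, gene lists and tests were chosen with earlier results of these data known. Genes named are all TIPs, the targeted genes, the 3 loci most like each tested TIP, and up to 3 called genes per direction with the largest differences from each comparison list. One gene that this rule names is not reported here. Root, seed and leaf markers stand beside the named genes. Single genes named from the marker lists and the neighbours shown per library were picked after their values were seen. So were the proton pump genes AVP1, VHA-a2 and VHA-a3. The alternatives tried were median-of-ratios scaling, no filter or a mean of 5 FPKM, a pseudocount of 0.1, the replicate number as a block, a fit of only the groups compared, FPKM rescaled without 203 organelle loci, the single mutants as reference in place of WT, and each library left out in turn.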

Additional observations from a re-analysis of the deposited data

How the results depend on the processing

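Of the TIP differences refitted under 18 alternatives, 659 kept their direction and side of the threshold, 13 lost their call, 15 gained one and 7 turned. Only 2 of the turned ones were past the threshold, TIP3;2 in atbmi1a against WT without atbmi1a replicate 1 (-0.87, adjusted p = 0.0443, against 2.57 without replicate 2) and TIP2;3 in atbmi1ab_strong with the single mutants as reference (0.44, adjusted p = 0.03). In the latter the single mutants, with lower TIP2;3, replace WT. The other 5 were called on neither side. With a library left out, TIP3;1 in atbmi1a ran from -0.18 to 4.65, TIP2;3 there from -0.43 to 0.022, TIP4;1 there from -0.50 to 0.18, and TIP3;1 in atbmi1b from -0.35 to 0.081. The 3 higher and 5 lower TIP calls in atbmi1abc against WT held under every alternative run. TIPs called higher in atbmi1a, 1 as reported, numbered 0 when only the compared groups were fitted and 0 to 3 when a library was left out, and TIPs called lower there 2 to 3. With the single mutants as reference, 4 TIPs were higher in atbmi1ab_strong, and TIP1;1 was lower (-0.44, adjusted p = 0.0177). Against atbmi1ab_strong, 0 to 1 TIPs were higher in atbmi1abc when a library was left out, the 1 being TIP4;1 without either atbmi1a library (adjusted p = 0.0462 and 0.0452). For all loci in atbmi1a against WT, 3299 higher and 3575 lower as reported, fitting only these groups gave 1649 and 1967, and leaving out a library gave 1724 to 3253 and 2063 to 3475, the lowest without WT replicate 2. Fewer samples and fewer degrees of freedom enter both.

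Removing the organelle loci shifted the median log2 difference of all loci by 0.12 in atbmi1a, 0.15 in atbmi1b and 0.17 in atbmi1ab_strong. Loci called lower then numbered 2336 in atbmi1a and 3070 in atbmi1b, against 4689 as reported in the latter, and the share of calls that were higher moved from 48.0% to 65.5%, from 46.9% to 64.9%, and from 49.4% to 60.3% in atbmi1ab_strong. No TIP changed direction under that scaling. Summed TIP FPKM in atbmi1b was 2065 with median-of-ratios scaling.

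With the replicate number as a block, the TIP counts were as reported except in atbmi1ab_strong, where TIP4;1 was called at 0.54 (adjusted p = 0.0289) and 3 TIPs were higher. The numbers share no source in the labels, and 2 of the 10 genotype pairs had a correlation over 0.1. Depth limits TIP2;3 in atbmi1abc and both pollen genes, which lie near 0.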
